A study of Mus musculus with 6 samples.

Results

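The Ccn family consists of 6 mouse genes, Ccn1 to Ccn6 (earlier names Cyr61, Ctgf, Nov, Wisp1, Wisp2 and Wisp3), which were taken by symbol from the 53801 genes counted in each library. All 6 were listed in every library, and 5 of them were among the 17514 genes that passed a filter on low counts. Ccn5 did not pass. RNA-seq was performed on the maxillary prominences, the paired facial swellings that form the upper jaw and palate, of E12.5 mouse embryos. The 3 WT samples, numbered WT 1 to 3, were compared with 3 Dlx2OE samples of the genotype wnt1cre; Rosa26Dlx2/-, and the comparison asks how these genes respond to a raised level of the transcription factor Dlx2.

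All samples were labelled C57BL/6, with C57BL/6J given as the background in the protocols. The Rosa26Dlx2 allele is a knock-in of a CAG promoter, a loxP-flanked stop and a 3xFlag-tagged Dlx2, so Dlx2 is made only in cells in which Cre has removed the stop and in their descendants. The wnt1cre transgene drives Cre in neural crest cells, which give rise to most facial mesenchyme, whereas surface epithelium, endothelium, blood and muscle descend from other cells. WT samples were labelled as carrying neither allele, and no sample with wnt1cre alone was analysed here, so an effect of Cre and an effect of Dlx2 cannot be told apart. Tissue of several littermates was used for RNA extraction, so the RNA of a sample may come from more than 1 embryo. Variation between litters may also not be sampled. Since whole tissue was used, fewer cells of a type and less RNA per cell cannot be told apart.

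CCN proteins are secreted matricellular proteins, which sit in the extracellular matrix and modulate signals more than they bear load. They are built from a signal peptide and up to 4 modules, resembling insulin-like growth factor binding proteins, von Willebrand factor type C repeats, thrombospondin type 1 repeats and a C-terminal cystine knot, and they act through integrins, heparan sulfate proteoglycans and LRP receptors. Ccn1 and Ccn2 are classic targets of YAP/TAZ with TEAD factors, of SRF and of TGF-beta, and loss of Ccn2 in mice is known to disturb cartilage and the craniofacial skeleton. Ccn4 was named as a Wnt-induced gene, Ccn3 protein is known to bind Notch1, Ccn5 lacks the C-terminal module, and loss of CCN6 in humans causes a joint cartilage disease.

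The genes lie on 4 chromosomes of GRCm38 (GENCODE M21). Ccn1 (ENSMUSG00000028195) is at chr3:145646976-145649981 on the minus strand, Ccn2 (ENSMUSG00000019997) at chr10:24595442-24598683 on the plus strand, and Ccn3 (ENSMUSG00000037362) at chr15:54745702-54754039 on the plus strand. Ccn4 (ENSMUSG00000005124) is at chr15:66891320-66923201 on the plus strand, Ccn5 (ENSMUSG00000027656) at chr2:163820861-163833146 on the plus strand, and Ccn6 (ENSMUSG00000062074) at chr10:39150970-39163794 on the minus strand. The pairs that share a chromosome are not neighbours. Ccn3 and Ccn4 are 12.1 Mb apart with 56 protein-coding genes between them, and Ccn2 and Ccn6 are 14.6 Mb apart with 55. The longest coding transcript of every member has 5 exons, although the genes span from 3006 bp (Ccn1) to 31882 bp (Ccn4), as the maps of the exons show. The coding sequences hold 348 to 379 codons in 5 members and 251 in Ccn5, the member without the C-terminal module.

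**Figure D1:**
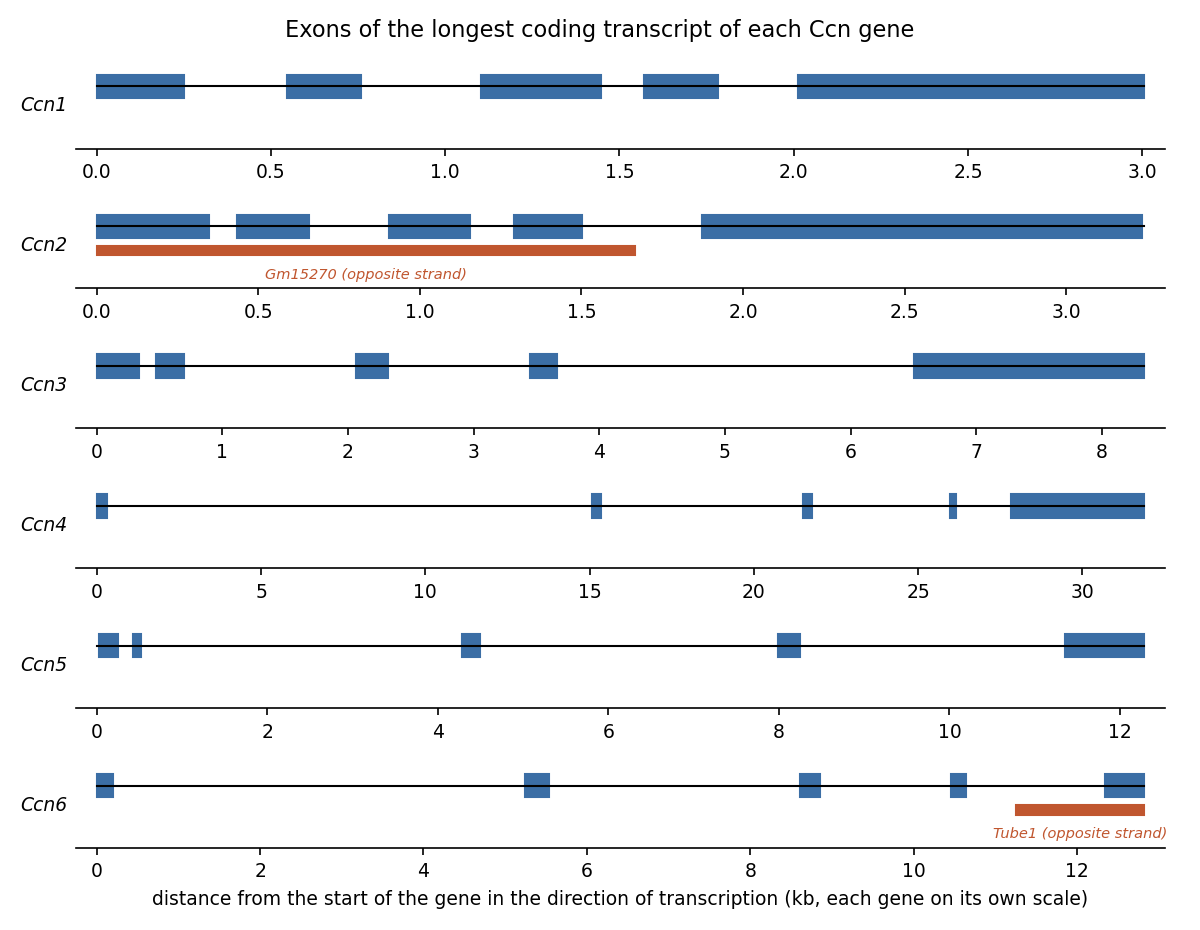
Exons (blue boxes) of the longest coding transcript of each Ccn gene, drawn from the start of the gene in the direction of transcription in kb, each gene on its own scale, with genes on the opposite strand whose exons overlap in orange. All 6 genes have 5 exons, and only the exons of Ccn2 (with Gm15270) and Ccn6 (with Tube1) overlap those of another gene.

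The IGFBP-like module of all members carries a short run of cysteine codons that is close to a signature of the family, and it is shown because the counts depend on whether reads of the members can be told apart. The 42 coding bases below come from exon 2, or from exon 3 in Ccn5, and are written 5′ to 3′ on the coding strand. The 24 capitals are the codons for glycine, cysteine, any amino acid, 2 cysteines, 2 of any kind and a closing cysteine. Positions on GRCm38 are chr3:145649322-145649363 (minus strand) for Ccn1, chr10:24595957-24595998 (plus) for Ccn2, chr15:54746256-54746297 (plus) for Ccn3, chr15:66906536-66906577 (plus) for Ccn4, chr2:163825216-163825257 (plus) for Ccn5 and chr10:39158362-39158403 (minus) for Ccn6.
Ccn1: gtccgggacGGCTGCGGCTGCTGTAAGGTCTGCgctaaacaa
Ccn2: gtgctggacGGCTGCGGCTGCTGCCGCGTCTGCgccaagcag
Ccn3: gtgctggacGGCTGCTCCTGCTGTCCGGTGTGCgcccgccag
Ccn4: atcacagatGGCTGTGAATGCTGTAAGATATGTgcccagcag
Ccn5: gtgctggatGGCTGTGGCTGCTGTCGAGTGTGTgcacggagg
Ccn6: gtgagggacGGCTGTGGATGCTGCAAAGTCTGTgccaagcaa
Over the 24 capital bases, pairs of members had 14 to 20 identical bases, with 20 for Ccn1 and Ccn2 and 14 for Ccn2 and Ccn4 and for Ccn3 and Ccn6. No 50-base word of any member's transcripts occurred in another member. Of the 2820 such words of Ccn3, 32 occurred in genes outside the family, and none of Ccn1, Ccn4 or Ccn5 did. Ccn2 and Ccn6 overlap genes outside the family. The antisense gene Gm15270 covered 23.2% of the exon bases of Ccn2 and the antisense gene Tube1, which encodes epsilon-tubulin, covered 34.0% of those of Ccn6. The library kit does not mark strand, so reads from these stretches cannot be told apart from those of the partner. Union-mode counting that ignores strand leaves such reads out of the counts of both genes. The setting used is not given in the sources used here. Counting by strand would place a large share of the reads of such libraries outside annotated features, where 5.03% to 14.7% fell. Counts were thus most likely made without regard to strand, and levels of Ccn2 and Ccn6 per full exon length are then too low.

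The 6 libraries held 26155500 to 31308813 reads on genes. In Dlx2OE 3, 14.7% of reads fell outside annotated features against 5.03% to 7.81% in the other 5 libraries, so the tests of the Ccn genes and the counts of the gene lists are also given without it. Dlx2 itself, counted from the transgene and the endogenous gene together, was 41.0 ± 5.32 CPM (reads of a gene scaled to a common library size, with TMM factors; SD, n = 3) in WT and 124 ± 5.96 CPM in Dlx2OE, 3.03-fold higher, with no overlap between the groups. The 10 facial mesenchyme markers examined, among them Prrx1, Twist1 and Pdgfra, were detected in every library. Their summed level was 1684 to 1969 CPM in WT and 2120 to 2481 CPM in Dlx2OE, with no overlap, although 4 of the 10 had lower means in Dlx2OE. The smallest amount taken as measurable was 3 counts, or 0.0955 to 0.111 CPM, a floor that covers counting error only.

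Ccn1 and Ccn4 were the main Ccn transcripts of the WT maxillary prominence. Levels of different genes are compared as TPM, which divides counts by exon length and scales every library to the same total. Ccn1 stood at 37.5 ± 9.61 TPM and Ccn4 at 28.8 ± 5.92 TPM (SD, n = 3), and although Ccn1 was above Ccn4 within each of the 3 WT libraries, their ranges over libraries overlapped (31.1 to 48.5 and 24.2 to 35.4 TPM). Ccn2 followed at 14.2 ± 3.59 TPM, Ccn3 at 3.85 ± 0.469 TPM and Ccn6 at 1.60 ± 0.474 TPM, each with a range that did not overlap that of its neighbour. Ccn5 was last at 0.0742 ± 0.0879 TPM. Among the genes tested, the WT level of Ccn1 was higher than that of 75.9% of genes, of Ccn4 69.9%, of Ccn2 53.6%, of Ccn3 30.8% and of Ccn6 18.7%.

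Ccn2 and Ccn4 were lower in Dlx2OE than in WT, Ccn1 showed no detectable difference, Ccn3 had lower and Ccn6 higher values in Dlx2OE without passing the test, and Ccn5 was at or near the floor in both genotypes. Of the 5 members tested, 2 passed an adjusted p of 0.05 in edgeR's quasi-likelihood test (Benjamini-Hochberg over the 17514 genes), both of them lower. Of all genes tested, 6.45% passed, 3.46% in the lower direction. With the added requirement of a log2 fold change under -1, Ccn2 was the only member left, where 1.62% of all genes passed. No member passed with a log2 fold change over 1, as 1.5% of all genes did. The groups did not overlap for Ccn2, Ccn3, Ccn4 and Ccn6, which is 4 of the 5 members tested, and 34.1% of all genes tested had groups that did not overlap.

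**Figure D2:**
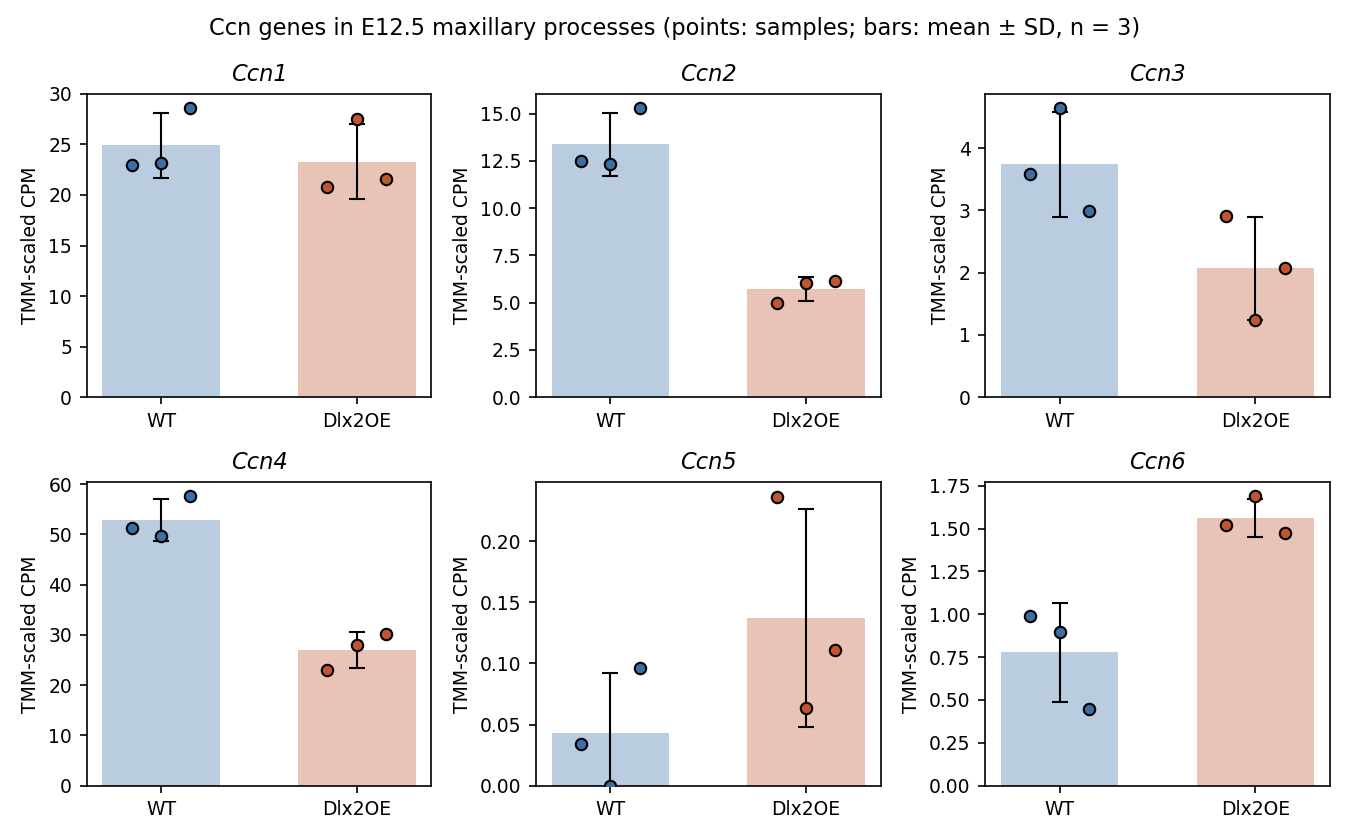
TMM-scaled CPM of each Ccn gene in the 3 WT (blue) and 3 Dlx2OE (orange) samples, with points for samples, bars for means and whiskers for SD (the lower whisker of Ccn5 in WT is cut off at 0), each panel on its own axis from 0. Ccn2 and Ccn4 are lower in all 3 Dlx2OE samples (5.00 to 6.17 against 12.3 to 15.3 CPM and 23.1 to 30.1 against 49.6 to 57.6 CPM), and Ccn6 is higher in all 3 (1.48 to 1.69 against 0.449 to 0.991 CPM).

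Ccn2, which encodes connective tissue growth factor, had the lowest fold change of the members in the fit of all 6 samples. WT samples 1 to 3 held 12.5, 12.3 and 15.3 CPM (366, 372 and 477 reads), and Dlx2OE samples 1 to 3 held 5.00, 6.02 and 6.17 CPM (148, 189 and 167 reads). The lowest WT value was thus above the highest Dlx2OE value, and the 3 Dlx2OE samples lay close together. The level was 2.34-fold lower in Dlx2OE, a log2 fold change of -1.22 with a standard error of 0.178, a 95% interval of -1.63 to -0.81 and an adjusted p of 0.0136 (edgeR), which placed Ccn2 at rank 162 of all genes tested. The adjusted p was 0.0333 without Dlx2OE 3, but it was 0.0657 without WT 2 and 0.0514 without Dlx2OE 2, with log2 fold changes of -1.29 and -1.26. Gm15270, the antisense gene over Ccn2, held 3 to 12 reads in WT and 6 to 8 in Dlx2OE, against the 148 or more of Ccn2.

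Ccn1, the paralog that shares with Ccn2 a place among the YAP/TAZ and SRF targets, did not pass the test. Its levels were 23.0, 23.2 and 28.6 CPM (672, 698 and 892 reads) in WT and 20.8, 27.5 and 21.6 CPM (616, 865 and 584 reads) in Dlx2OE. The values of the groups were interleaved, and WT 3 and Dlx2OE 2 were the high samples. The log2 fold change was -0.10 with a standard error of 0.155 and an adjusted p of 0.702 (edgeR). Its 95% interval ran from -0.45 to 0.26, so at this depth and spread a decrease to 0.730 of the WT level or an increase to 1.20 times that level lay within it, and a fall of the size seen in Ccn2 lay outside. Without WT 3 the log2 fold change was 0.0051 (adjusted p = 0.986), and without Dlx2OE 3 it was -0.04 (adjusted p = 0.911).

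The ratio of the reads of both genes within each library does not depend on the scaling of libraries, although it does on how each gene is counted. WT libraries held 0.545, 0.533 and 0.535 reads of Ccn2 for each read of Ccn1, and Dlx2OE libraries held 0.240, 0.218 and 0.286. The ratio was nearly the same in the 3 WT libraries even though both genes were highest in WT 3, and it was lower in all 3 Dlx2OE libraries, with a mean log2 difference of -1.12. An exact two-sided permutation test of 3 against 3 gave p = 0.1, the smallest p it can give. The ratio of Ccn4 to Ccn1 was likewise lower, at 2.24, 2.14 and 2.01 in WT and 1.11, 1.02 and 1.40 in Dlx2OE (mean log2 difference -0.87, exact permutation p = 0.1).

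Ccn4, the Wnt-induced member that was the most heavily counted, also fell. It held 51.4, 49.6 and 57.6 CPM (1504, 1495 and 1795 reads) in WT and 23.1, 28.0 and 30.1 CPM (685, 878 and 815 reads) in Dlx2OE. No Dlx2OE sample came near the WT range. Ccn4 was 1.95-fold lower, a log2 fold change of -0.97 with a standard error of 0.126, a 95% interval of -1.26 to -0.67 and an adjusted p of 0.0116 (edgeR), at rank 91 of all genes tested. The fold change thus did not reach -1 on the log2 scale, although the interval included it. Without Dlx2OE 3 the adjusted p was 0.0201 with a log2 fold change of -1.05, and without WT 2 it was 0.0512 with a log2 fold change of -1.02.

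Ccn6 and Ccn5 share the Wisp series of earlier names with Ccn4. Ccn6 held 0.991, 0.896 and 0.449 CPM (29, 27 and 14 reads) in WT and 1.52, 1.69 and 1.48 CPM (45, 53 and 40 reads) in Dlx2OE. All 3 Dlx2OE samples were above all 3 WT samples, and WT 3 was well below the other WT samples. The log2 fold change was 1.00 with a standard error of 0.343, a 95% interval of 0.21 to 1.79 and an adjusted p of 0.106 (edgeR), so the difference did not pass the test. Without Dlx2OE 3 the log2 fold change was 1.04 (adjusted p = 0.206). Tube1, whose exons overlap those of Ccn6, was at 18.4 to 24.0 CPM in WT and 20.2 to 24.7 CPM in Dlx2OE (log2 fold change 0.07, adjusted p = 0.777), with overlapping groups.

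Ccn5 was read 1, 0 and 3 times in WT and 7, 2 and 3 times in Dlx2OE. Only Dlx2OE 1 was above the floor of 3 counts, and the absence of reads in WT 2 allows a level of up to 0.0995 CPM. A difference was not detectable at this depth, and no fold change is given. With no filter on low counts, edgeR gave an unadjusted p of 0.207 and an adjusted p of 0.519.

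Ccn3, the member whose protein binds Notch1, was counted at a low level. It held 3.59, 4.65 and 2.98 CPM (105, 140 and 93 reads) in WT and 2.90, 1.24 and 2.07 CPM (86, 39 and 56 reads) in Dlx2OE. The groups did not overlap, but the lowest WT sample, WT 3, and the highest Dlx2OE sample, Dlx2OE 1, were nearly equal. The log2 fold change of -0.85 had a standard error of 0.344, a 95% interval of -1.65 to -0.06 and an adjusted p of 0.148 (edgeR), and the difference did not pass the test. Leaving out single samples moved its log2 fold change between -1.19 (without Dlx2OE 1) and -0.59 (without Dlx2OE 2), with no adjusted p under 0.05 in 6 fits. Without Dlx2OE 3 it was -0.85 (adjusted p = 0.287). Without Dlx2OE 1 the fold change of Ccn3 was lower than that of Ccn2 (-1.14).

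**Figure D3:**
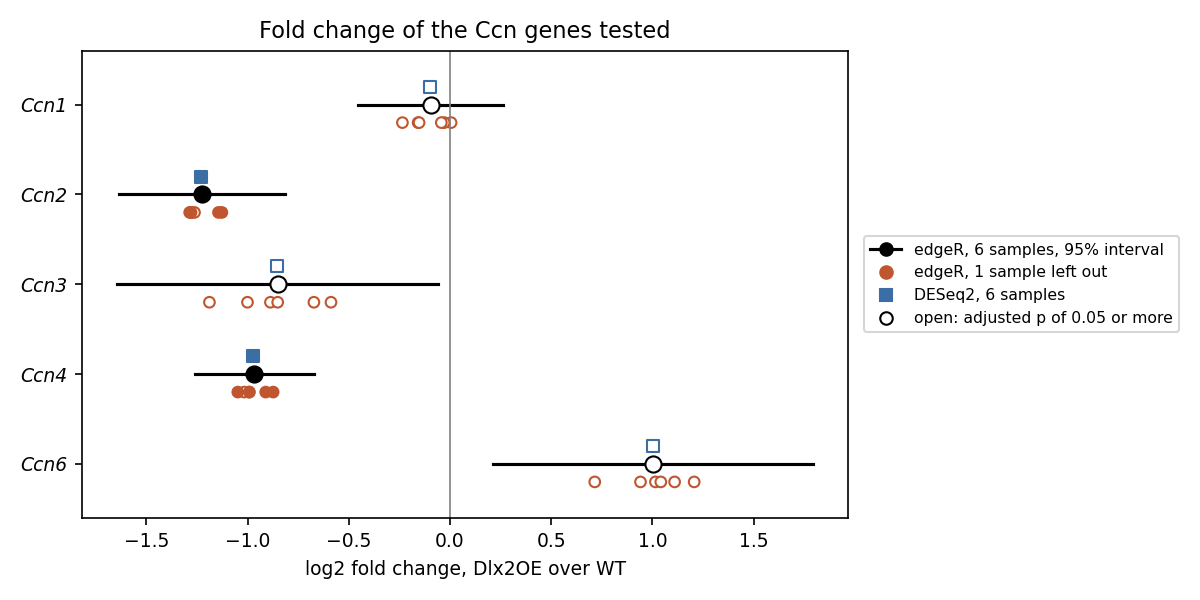
Log2 fold change, Dlx2OE over WT, of the 5 Ccn genes tested, by edgeR with its 95% interval (black), with each sample left out in turn (orange) and by DESeq2 (blue); filled symbols have an adjusted p under 0.05. Ccn2 and Ccn4 lie below 0 in every fit, filled in 4 of 6 and 5 of 6 of the fits with a sample left out, while no symbol of Ccn1, Ccn3 or Ccn6 is filled.

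The Wald test of DESeq2, the tool of the study, called 12.7% of the 19047 genes to which it gave an adjusted p, 7.21% lower and 5.54% higher. Among the members it called Ccn2 (adjusted p = 2.41e-07) and Ccn4 (adjusted p = 5.65e-08) lower, and it called neither Ccn1 (0.773), Ccn3 (0.115) nor Ccn6 (0.154) by adjusted p. It gave Ccn5 an unadjusted p of 0.323 and no adjusted p.

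Ccn1 made up more, and Ccn4 and Ccn2 less, of the family in each Dlx2OE library than in any WT library. When the reads of each gene are divided by its exon length and expressed as a share of the family in the same library, Ccn1 made up 43.4% ± 1.70 (SD, n = 3) in WT and 56.7% ± 3.85 in Dlx2OE. The share of Ccn4 was 33.5% ± 0.688 in WT and 24.0% ± 2.58 in Dlx2OE, and that of Ccn2 was 16.4% ± 0.579 and 9.87% ± 0.758. These 3 shares and that of Ccn6 did not overlap between the genotypes, and since shares add up to a fixed total, the higher share of Ccn1 mirrors the lower ones. Ccn6 had a share of 1.98% ± 0.849 in WT and 5.44% ± 0.334 in Dlx2OE and stood above Ccn3 (3.67% ± 1.79) within each Dlx2OE library, whereas Ccn3 (4.66% ± 1.34) stood above Ccn6 within each WT library. The summed level of the family, in CPM per kb of exon, was 26.9, 27.0 and 31.3 in WT and 18.4, 22.4 and 20.1 in Dlx2OE, with no overlap (exact permutation p = 0.1, the smallest possible).

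**Figure D4:**
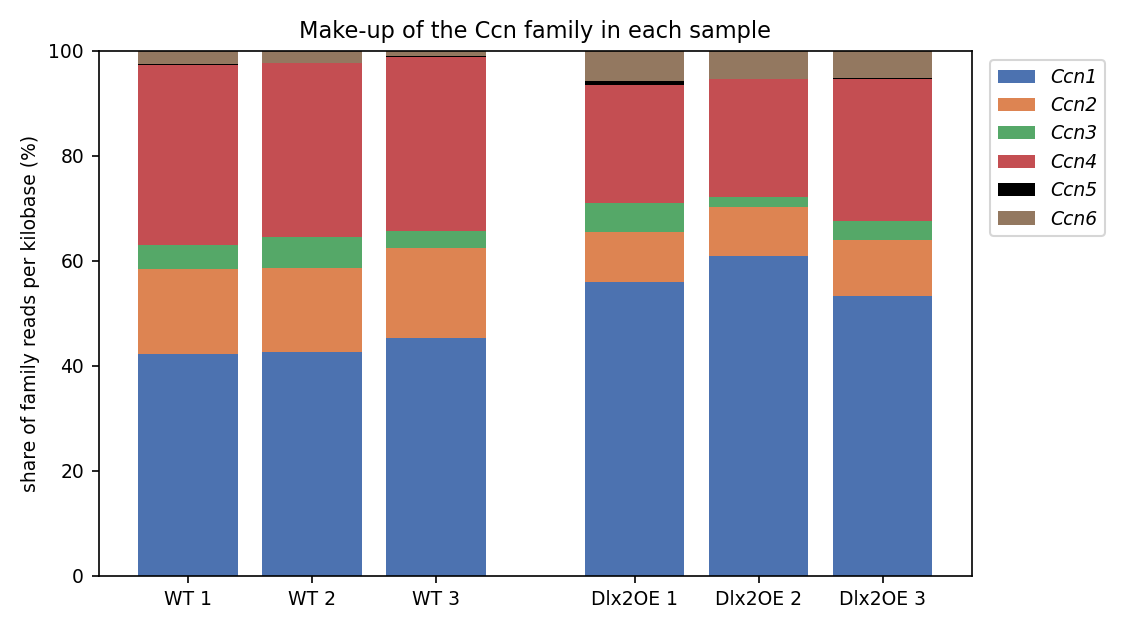
Share of each Ccn gene in the reads per kilobase of the family, in percent, in each of the 3 WT and 3 Dlx2OE samples (stacked bars that add up to 100%). Ccn1 takes 42.2% to 45.3% in WT and 53.2% to 60.8% in Dlx2OE, while the bands of Ccn4 and Ccn2 are narrower in all 3 Dlx2OE samples.

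Ccn2 and Ccn4 had the most similar profiles of any pair of members. After the log2 CPM of each gene was centred on its mean over the 6 samples, the root mean square difference between them was 0.130, against 0.458 to 1.19 for the other 9 pairs. This likeness includes the difference between genotypes, and it is a description over 6 samples with no test. The ratio of Ccn2 to Ccn4 was 0.243, 0.249 and 0.266 in WT and 0.216, 0.215 and 0.205 in Dlx2OE, so that Ccn2 was still lower relative to Ccn4 (mean log2 difference -0.25, exact permutation p = 0.1). Of the 13224 other genes with a mean log2 CPM of at least 1, those most like Ccn2 were Tgm2 (root mean square difference 0.0626), a transglutaminase that crosslinks matrix proteins, and Pax9 (0.0876), a transcription factor required for palate and tooth development. Those most like Ccn4 were Unc5d (0.0601), a netrin receptor, and Tmem86a (0.0760). Ccn1 was most like Prorsd1 (0.0484) and Parp16 (0.0534), Ccn3 like Anxa8 (0.162) and Tnfrsf12a (0.174), and Ccn6 like Jakmip2 (0.183) and Pla2g4b (0.206).

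Genes known to respond to the same signals as the members were counted next, beginning with YAP/TAZ and TEAD, the transcriptional effectors of Hippo signalling that act on Ccn1 and Ccn2. Of 25 such targets tested outside the family, 3 were lower and 2 higher at an adjusted p under 0.05 (edgeR). That is 20% of the list, beside 6.45% of all genes tested. The median log2 fold change of the list was -0.0030, beside 0.0028 over all genes tested. The lower ones were F3, encoding tissue factor, which went from 43.1 ± 5.84 to 8.77 ± 0.235 CPM (log2 fold change -2.30), the forkhead gene Foxf2 (-1.57) and the ligand gene Tgfb2 (-0.61). The higher ones were Amotl2, which encodes an angiomotin (77.1 ± 10.4 to 145 ± 25.2 CPM, 0.91), and Thbs1, which encodes thrombospondin 1 (117 ± 20.3 to 218 ± 35.3 CPM, 0.90). In the fit of all 6 samples the called genes of this list, which leaves out the Ccn genes, thus lay in both directions. The part of YAP/TAZ in the levels of Ccn1 and Ccn2 was not tested. DESeq2 called 5 of 26 lower and 2 higher, as did edgeR without Dlx2OE 1. With library size alone as scaling, 1 was lower and 2 were higher, and without Dlx2OE 3, 2 were lower and 0 higher. Without WT 1 or WT 2, 1 was lower and 0 higher, without WT 3, 2 were lower and 3 higher, and without Dlx2OE 2, 1 was lower and 1 higher. The calls over all genes moved as well, from 1130 with all samples. They were 180 without WT 1, 79 without WT 2 and 2091 without WT 3. Without Dlx2OE 1, 2 and 3 in turn they were 1944, 213 and 315. Counts of every list with a sample left out are to be read beside these. Ankrd1 did not pass the filter with all samples.

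The lists for the other inputs known for the family were called at shares of 10% (SRF) and 6.25% (TGF-beta), beside the 6.45% of all genes. Of 20 genes linked to SRF tested, the regulator Srf itself was higher (53.3 ± 6.23 to 82.9 ± 2.76 CPM, log2 fold change 0.64) and the tropomyosin gene Tpm1 was lower (563 ± 3.20 to 384 ± 36.6 CPM, -0.55), with a median of -0.03. Means were lower for 11 of the 20. The groups did not overlap for 7 lower and 3 higher genes of the list, beside 17.3% and 16.7% of all genes. The immediate early gene Egr1, which is induced like Ccn1 by serum, was at 6.38 CPM in WT and 6.15 CPM in Dlx2OE (adjusted p = 0.897). Of 16 TGF-beta response genes tested, Smad7, an inhibitor of the pathway, was called higher (25.1 ± 0.606 to 40.4 ± 4.64 CPM, 0.68) and none was called lower. Means were nevertheless lower for 10 of the 16, and the median was -0.20. The groups did not overlap for 6 lower genes and 1 higher gene of this list, beside 17.3% and 16.7% of all genes. DESeq2 called 3 genes lower and 1 higher in each of these lists. At an unadjusted p under 0.05 in edgeR, which 29.5% of all genes reached, there were 7 of the 16 TGF-beta genes and 9 of the 20 SRF genes. Without Dlx2OE 3 the TGF-beta list kept 1 call, and the SRF list had 0 calls with 6 genes at an unadjusted p under 0.05. Over all fits with a sample left out, calls in either list ranged from 0 to 2 in each direction.

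The called genes of the Wnt/beta-catenin list, which bears on the name of Ccn4, were higher where Ccn4 was lower. Of 15 feedback targets tested, 6 were higher and 0 lower (edgeR; 2.99% of all genes were called higher), with a median log2 fold change of 1.77. DESeq2 called 10 higher and 0 lower. Lef1, a transcription factor of the pathway, went from 14.0 ± 0.721 to 131 ± 28.2 CPM (log2 fold change 3.23), and Axin2, a negative feedback regulator, went from 42.2 ± 6.28 to 144 ± 32.9 CPM (1.77). The secreted or membrane inhibitors Apcdd1 (2.51) and Dkk1 (2.33), the cytoplasmic inhibitor Nkd1 (2.07) and the ubiquitin ligase gene Znrf3 (0.92) were higher as well. In every Dlx2OE sample Ccn4 was below every WT sample. The count of higher genes was 5 without Dlx2OE 3, 4 without WT 1 and 2 without WT 2. Without Dlx2OE 1, 6 were higher and 1 was lower, and the median was 0.80. Lef1 and Axin2 were among the genes the study had singled out in these samples, so the count is no independent support for a direction.

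**Figure D5:**
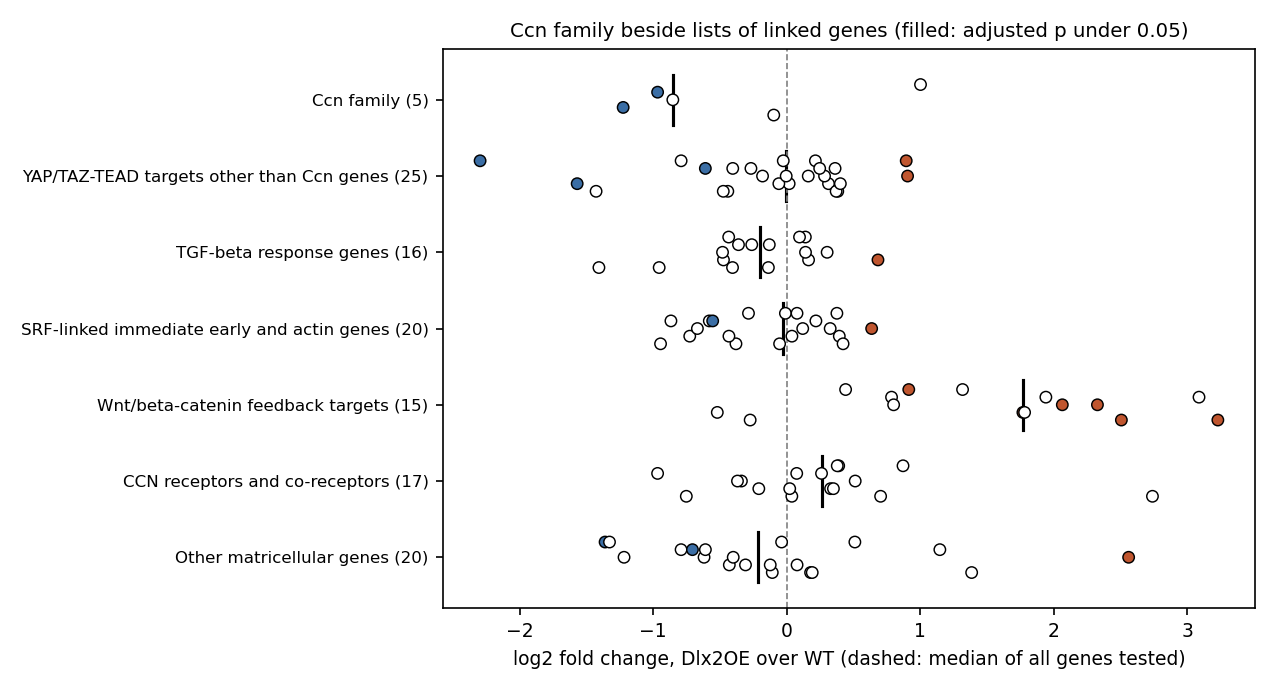
Log2 fold change, Dlx2OE over WT, of each tested gene of the Ccn family and of 6 lists of linked genes (number of genes tested in brackets; vertical bars are medians, the dashed line is the median of all genes tested, filled points have an adjusted p under 0.05 and are blue when lower and orange when higher). The called Ccn genes, Ccn2 and Ccn4, are lower, all 6 called Wnt/beta-catenin feedback targets are higher, and the called YAP/TAZ-TEAD targets fall on both sides.

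No receptor of CCN proteins passed the test in the fit of all 6 samples. Of 17 receptor and co-receptor genes, 0 were called by edgeR with all 6 samples, beside 6.45% of all genes. At an unadjusted p under 0.05 there were 6 of 17, beside 29.5% of all genes, and DESeq2 called 2 of 17 higher, beside 5.54%. Without Dlx2OE 3 there were again 0 calls, with 4 at an unadjusted p under 0.05, and without WT 3 or Dlx2OE 1 there was 1, higher. The integrin subunits of the list ranged from Itgam, at 0.500 CPM in WT and 0.294 CPM in Dlx2OE, up to Itgb1. Itgb3 was at 10.4 CPM in WT and 13.5 CPM in Dlx2OE. Itgb1, the shared beta subunit, was at 631 CPM in WT and 489 CPM in Dlx2OE (log2 fold change -0.37, adjusted p = 0.111), Itgav was at 84.8 and 108 CPM (0.35, adjusted p = 0.184), and Itgb5 was at 200.4 and 206 CPM (0.04, adjusted p = 0.869). Notch1, which binds Ccn3 protein, was at 61.8 CPM in WT and 113 CPM in Dlx2OE with no overlap (0.87, adjusted p = 0.0542). In the whole receptor list the groups did not overlap for 2 higher and 2 lower genes, with Itgb1 among the lower. Over all genes 16.7% were higher and 17.3% lower without overlap. Of 20 other matricellular genes tested, 15% were called, beside 6.45% of all genes. Thbs1, which was called higher, is also matricellular but was counted with the YAP/TAZ-TEAD targets and not in this list. Postn, encoding periostin, was lower (931 ± 238 to 363 ± 7.52 CPM, -1.36), as was Sparcl1 (84.6 ± 9.90 to 51.9 ± 10.5 CPM, -0.71), while the tenascin gene Tnn was higher (4.87 ± 1.48 to 28.8 ± 23.0 CPM, 2.56). The calls of this list were 1 higher and 1 lower without Dlx2OE 3, 2 higher and 3 lower without Dlx2OE 1, 0 without Dlx2OE 2 (6 genes at an unadjusted p under 0.05), and 1 lower without WT 1, WT 2 or WT 3 in turn. DESeq2 called 1 higher and 5 lower.

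Markers of other cell types that the tissue holds also differed with genotype, and Ccn genes are known to be made by several of these cells. For comparison with the marker counts below, edgeR with all 6 samples called 3.46% of all genes lower, and DESeq2 called 7.21% lower. Without Dlx2OE 3, edgeR called 315 genes in all, beside 1130 with all samples. The sums of macrophage and erythroid markers did not overlap. Macrophage markers summed to 90.3 to 102 CPM in WT and 60.7 to 67.5 CPM in Dlx2OE, and 2 of 9 were called lower (0 without Dlx2OE 3, with 5 at an unadjusted p under 0.05, and 5 in DESeq2). Erythroid markers summed to 3140 to 4274 and 1935 to 2506 CPM, and 3 of 8 were called lower (1 without Dlx2OE 3). The 9 endothelial markers had lower means, with 1 called (Emcn; 0 without Dlx2OE 3, with 2 at an unadjusted p under 0.05, and 2 in DESeq2), and their sums overlapped (315 to 468 and 226 to 363 CPM). Without Dlx2OE 1, 6 of the 9 were lower.

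Of 8 pericyte and smooth muscle markers tested, 1 was called lower (Rgs5, also without Dlx2OE 3), and the sums overlapped (314 to 395 and 320 to 402 CPM). Higd1b, the marker of this list that was not tested, was at 0 in 4 libraries. Surface epithelium markers went in both directions. Of 9, 3 were called lower (Krt8, Krt18 and Cldn7), while the basal keratin gene Krt5 had higher values without overlap (log2 fold change 1.91, adjusted p = 0.0792), and Krt14 (0.34) and Trp63 (0.13) had higher means with overlap. Their sums were 676 to 1207 CPM in WT and 532 to 1664 CPM in Dlx2OE. The calls were 1 lower without Dlx2OE 3 and 6 lower without Dlx2OE 1, where 8 of 9 had lower means.

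Cartilage, muscle, bone, neuron and glial markers gave no call in edgeR with all samples. Cartilage markers had lower means in 7 of 8 tested (5 at an unadjusted p under 0.05), with sums of 566 to 811 and 281 to 654 CPM. DESeq2 called 3 of 9 lower, and edgeR called 1 of 9 without Dlx2OE 3. Skeletal muscle markers had lower means in 8 of 9 (2 at an unadjusted p under 0.05, 1 call in DESeq2), a median log2 fold change of -0.76 and sums of 175 to 338 and 93.7 to 206 CPM. Without Dlx2OE 3, 7 of the 9 muscle markers were at an unadjusted p under 0.05 in edgeR, with 0 calls and a median of -1.17. Osteoblast markers summed to 185 to 216 and 184 to 213 CPM (3 of 7 at an unadjusted p under 0.05, 0 calls in DESeq2). Without Dlx2OE 3, again 3 of the 7 osteoblast markers were at an unadjusted p under 0.05 in edgeR, with 0 calls. Neuron markers had higher means in 9 of 9 (3 at an unadjusted p under 0.05, 0 calls in DESeq2), with a median of 2.08 and sums of 82.2 to 359 and 201 to 1579 CPM. Without Dlx2OE 3, 2 of the 9 neuron markers were lower and the median was 1.24, and without Dlx2OE 1, 5 were called higher. Schwann and glial markers summed to 155 to 162 and 96.3 to 329.5 CPM (2 of 7 at an unadjusted p under 0.05, 1 called lower in DESeq2), with a median of -0.06, and of -0.41 without Dlx2OE 3. No marker of the endothelial, cartilage, muscle, neuron, macrophage, erythroid or epithelium lists was at 0 in any library. Ccn2 and Ccn4 moved in the same direction as the called genes of the macrophage, erythroid, endothelial, pericyte and epithelium lists. The called facial mesenchyme markers went the other way. Of 10, 2 were called higher (2.99% of all genes were), Tfap2a (log2 fold change 1.48) and Twist1 (0.65), and 0 lower. Without Dlx2OE 3 these counts were the same, and DESeq2 called 4 higher and 1 lower. The list as a whole was mixed, with higher means for 6 of the 10, lower means for 4 and a median log2 fold change of 0.05. The part of these cell types in the result was not tested.

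RefSeq promoter sequence (GRCm38.p6) was at hand for Ccn1 and Ccn6, and the 250 bases before the start of Ccn1 are shown because they hold the letters that TEAD factors recognise. They lie at chr3:145649986-145650235 and are written 5′ to 3′ on the minus strand, with the TEAD core CATTCC in capitals.
Ccn1 promoter: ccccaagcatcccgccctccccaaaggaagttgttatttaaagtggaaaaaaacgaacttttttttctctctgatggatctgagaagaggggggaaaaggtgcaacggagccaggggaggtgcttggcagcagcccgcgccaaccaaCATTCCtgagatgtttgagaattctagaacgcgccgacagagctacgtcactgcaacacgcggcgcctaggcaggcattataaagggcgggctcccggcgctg
The core lay 103 to 98 bases before the start, and a TATA box (TATAAA) lay 25 to 20 bases before it without overlapping the core. Over 32851 promoters of the same length, searched on both strands, 12.6% held CATTCC and 12.4% held TATAAA. The TCF/LEF core CTTTGAT (3.21% of promoters) and the CArG box bound by SRF (1.47%) were not found in this window, and none of the 4 motifs was found in that of Ccn6. Ccn2, Ccn3, Ccn4 and Ccn5 had no entry. Such matches describe letters and not binding.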

How the data were processed

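RNA of 3 WT and 3 Dlx2OE samples was poly-A selected and sequenced as paired-end reads. The authors trimmed the reads, checked them with FastQC, mapped them to mm10 with STAR 2.7.3a, and counted them per gene with HTSeq 0.12.4 in union mode. They deposited raw counts without normalization. The annotation release and the strand setting are not given in the sources used here. The 5 summary lines of each file (16.8% to 25.3% of reads) were left out of library sizes and tests. Symbols and exon lengths came from GENCODE M21, which holds 53706 of the 53801 identifiers.

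Genotypes were compared with edgeR 4.0.16 (R 4.3.3; filterByExpr with a minimum count of 10, TMM scaling, quasi-likelihood F test on genotype, Benjamini-Hochberg adjustment over 17514 genes, threshold 0.05). DESeq2 1.42.0 was an alternative, as were RLE factors, library size alone, no filter, at least 10 counts in every sample, a replicate block, each sample left out in turn, and the longest transcript as length. Unshared exon length, TPM without genes under 200 bp, and repeated counts of the gene lists were added after the data were seen. Fitted fold changes are on the log2 scale, and log2 CPM used a prior count of 2. TPM was compared only between genes of WT libraries and within libraries, because the 57 bp gene Gm23935 took 41.6% of TPM in Dlx2OE 3 and 1.05% to 6.34% elsewhere. Scripts were tested on simulated data.

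The members and all lists were chosen with earlier results of these data known, and the study names Ccn2 among its lower genes. Named were the members, genes overlapping their exons, Dlx2, up to 6 genes of each list (those called with the smallest p, and those needed as background), markers called, and the 2 genes most like each member. Replicates differed by more than sampling noise (mean chi-square of 32.3 to 72.7 per gene between pairs of a group). The labels call the RNA samples independent. Same-numbered WT and Dlx2OE samples did not deviate together.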

Additional observations from a re-analysis of the deposited data

How the results depend on the processing

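Ccn2 and Ccn4 stayed lower in every alternative run and passed an adjusted p of 0.05 in edgeR with RLE factors, with library size alone, with no filter, with at least 10 counts in every sample and in DESeq2. With a sample left out, the log2 fold change of Ccn2 ranged from -1.29 to -1.13 and lost its call without WT 2 or Dlx2OE 2, and that of Ccn4 ranged from -1.05 to -0.87 and lost its call without WT 2. The number of members called then ranged from 0 to 2, and that of all genes called from 79 to 2091, beside 1130 with all samples. Ccn1 ranged from -0.24 to 0.0051, the latter without WT 3, with a reversed sign. Ccn3 (-1.19 to -0.59) and Ccn6 (0.71 to 1.21) kept their direction and never passed. DESeq2 called 2428 genes and edgeR without a filter 2044. The causes were not tested. Under the replicate block, which rests on numbers that did not pair the samples (correlations of deviations -0.072, -0.211 and 0.073), 961 genes were called, Ccn2 was -1.22 (adjusted p = 0.0321) and Ccn4 -0.97 (adjusted p = 0.0301), and no member changed its call. With unshared exon length, added after the data were seen, the WT levels of Ccn2 and Ccn6 were 18.5 and 2.43 TPM. The divisor is then smaller, as it leaves out the stretches whose reads union-mode counting without strand drops. With the longest transcript Ccn3 was at 2.95 TPM. The order of levels was the same with the longest transcript. Ccn5 was filtered out and gave no fold change to vary. Ccn6 was counted with 14 to 53 reads per library, and the parts of depth and of spread between samples in its error were not told apart.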
